A study of Homo sapiens with 12 samples.

Results

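Chromatin accessibility was examined around 6 genes that encode haematopoietic growth factor receptors: CSF3R, IL6R, CSF2RB, CSF1R, FLT3 and KIT. The members were taken as every ATAC-seq peak within the GENCODE gene body and 50 kb on each side, in 6 deposited peak lists, with overlapping or touching peaks of the lists joined into common regions. This gave 203 of the 355394 common regions of chromosomes 1 to 22, X and Y, of which 22 lay in the CSF3R window, 41 in that of IL6R, 26 in that of CSF2RB, 38 in that of CSF1R, 55 in that of FLT3 and 21 in that of KIT.

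ATAC-seq inserts adaptors into open chromatin with the Tn5 transposase, so that fragments accumulate where DNA is accessible. KO-52, an acute myeloid leukaemia (AML) cell line with mutations in both alleles of CEBPA, was transduced with an empty vector (EV), with full-length CEBPA (p42) or with its N-terminally truncated isoform (p30). DMSO, or 2 µg/mL of tunicamycin (Tm), which stresses the endoplasmic reticulum by blocking N-glycosylation, was applied to each line over 8 h. The 12 libraries form 6 groups of 2 replicates. The endogenous CEBPA mutations were shared by all groups. For lasting expression in these cells the methods describe isoforms fused to ERT2 and sorting for GFP, with 4-hydroxytamoxifen given beforehand to cells with the fusions and to empty vector controls, although the ATAC-seq labels do not name the construct. Each peak list was called on the pooled replicates of a group, so that a value below has no replicate spread, no test between groups was possible, and intervals cover counting error only.

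Growth factor receptors let blood progenitors respond to cytokines. CSF3R, IL6R and CSF2RB belong to the class of cytokine receptors that lack a kinase of their own and signal through JAK kinases and STAT factors, whereas CSF1R, FLT3 and KIT are receptor tyrosine kinases of the platelet-derived growth factor receptor family. C/EBPα, the protein that CEBPA encodes, is a basic leucine zipper factor required for granulocyte formation, and CSF3R and CSF1R are among the genes it is known to act on together with PU.1 and RUNX1. p30 retains the DNA-binding domain and lacks part of the transactivation domains of p42. FLT3 and KIT are marks of immature haematopoietic cells, and both can carry activating mutations in AML.

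The sequences below are those at or near the summits of regions that set the p42 lists, or p42 DMSO alone, apart. A strongly open intronic region of FLT3 is added, with a KIT region that ranked lowest in p42 DMSO and a CSF1R region not called in p42 cells. They were read from hg38 by coordinates and are written 5′ to 3′ on the strand of the receptor gene. Capitals mark exact matches, on either strand, to the motifs searched: the composite CEBP:AP1 letters TGTTGCAA in the CSF3R promoter and in intron 4 of FLT3, the CEBP letters TTGCACAA and the PU.1 letters GAGGAAGT in intron 15 of FLT3, the PU.1 letters upstream of CSF2RB, the RUNX letters TGTGGTT at the CSF1R promoter, and the AP-1 letters TGACTCA downstream of CSF1R. Sequences without capitals held none of these motifs within 100 bp of the summit.
CSF3R promoter site, chr1:36482945-36482974, minus strand: ggctcggaaggTGTTGCAAtccccagcccc
FLT3 intron 4, chr13:28053063-28053263, minus strand: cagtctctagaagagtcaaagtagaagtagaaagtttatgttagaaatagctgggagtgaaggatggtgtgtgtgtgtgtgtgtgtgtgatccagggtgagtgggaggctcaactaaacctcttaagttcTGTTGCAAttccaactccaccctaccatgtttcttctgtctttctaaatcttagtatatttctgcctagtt
FLT3 intron 9, chr13:28041268-28041468, minus strand: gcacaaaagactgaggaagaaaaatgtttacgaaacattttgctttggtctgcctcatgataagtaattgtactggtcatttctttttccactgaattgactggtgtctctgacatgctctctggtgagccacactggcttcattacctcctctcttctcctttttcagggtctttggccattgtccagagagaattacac
FLT3 intron 15, chr13:28031596-28031796, minus strand: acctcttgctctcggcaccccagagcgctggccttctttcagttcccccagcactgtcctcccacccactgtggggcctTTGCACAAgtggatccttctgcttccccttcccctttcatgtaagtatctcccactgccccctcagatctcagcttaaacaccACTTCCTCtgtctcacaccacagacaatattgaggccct
IL6R intron 3, chr1:154432726-154432926, plus strand: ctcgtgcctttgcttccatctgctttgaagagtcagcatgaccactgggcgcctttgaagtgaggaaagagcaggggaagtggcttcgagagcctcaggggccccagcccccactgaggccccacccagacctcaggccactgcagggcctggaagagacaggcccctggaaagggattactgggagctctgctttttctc
CSF2RB intron 3, chr22:36923609-36923809, plus strand: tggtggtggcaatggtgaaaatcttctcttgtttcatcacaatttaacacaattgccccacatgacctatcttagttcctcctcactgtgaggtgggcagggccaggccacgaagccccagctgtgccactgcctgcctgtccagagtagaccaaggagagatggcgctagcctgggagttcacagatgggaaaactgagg
CSF2RB upstream, chr22:36900287-36900487, plus strand: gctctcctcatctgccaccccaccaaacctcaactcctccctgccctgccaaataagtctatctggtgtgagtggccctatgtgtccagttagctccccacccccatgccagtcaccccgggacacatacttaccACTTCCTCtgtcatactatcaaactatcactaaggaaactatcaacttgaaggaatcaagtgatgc
CSF1R promoter site, chr5:150086608-150086637, minus strand: atttccaaactcTGTGGTTgccttgcctag
CSF1R downstream, chr5:150022216-150022416, minus strand: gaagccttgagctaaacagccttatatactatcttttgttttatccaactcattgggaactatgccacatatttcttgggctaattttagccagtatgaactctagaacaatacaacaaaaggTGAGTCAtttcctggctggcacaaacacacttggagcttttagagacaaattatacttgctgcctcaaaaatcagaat
KIT downstream, chr4:54746312-54746512, plus strand: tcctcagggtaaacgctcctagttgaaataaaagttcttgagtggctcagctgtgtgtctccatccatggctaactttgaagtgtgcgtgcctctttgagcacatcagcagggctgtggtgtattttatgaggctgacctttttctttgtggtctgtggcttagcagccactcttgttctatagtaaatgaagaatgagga

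CSF3R encodes the receptor for granulocyte colony-stimulating factor and lies on chromosome 1 (hg38, 36466043 to 36483278, minus strand). Its promoter region, at 36482433 to 36483334 across the first exon, was called in every list and was strongest in p42 cells. The summit of a peak is its highest point, and the number of sequenced reads or fragments (tags) piled up there was 22 in EV DMSO, 24 in EV Tm, 18 in p30 DMSO, 19 in p30 Tm, 39 in p42 DMSO and 35 in p42 Tm. Both p42 values stood above the other 4, and p30 DMSO held the lowest. Since lists differ in depth, each region was also placed by the −log10 q of its strongest peak among all peaks of the same list, as a percentile. The promoter lay at percentile 48.5 in p30 DMSO and 86.2 in p42 DMSO, at 64.4 in EV DMSO, and at 55.0 in p30 Tm, 83.5 in p42 Tm and 67.8 in EV Tm. The percentile itself depends on the ranking: by fold enrichment it was 30.5 in p30 DMSO and 69.2 in p42 DMSO, and among regions called in all 6 lists 17.6 and 69.7, with a difference of 38.72 and 52.13 points in place of 37.69. Per estimated depth the summit held 1.92 times as many tags in p42 DMSO as in p30 DMSO (exact 95% interval 1.07 to 3.56), and 1.32 times as many as in EV DMSO (0.761 to 2.33), an interval that includes no difference. The CEBP:AP1 letters lay 43 bp upstream of the canonical start site and 60 bp from the summit.

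A pair of regions in intron 1 of CSF3R went the other way. The region at 36481694 to 36481990, 1.1 kb into the gene, held 12 tags in EV DMSO, 14 in EV Tm, 13 in p30 DMSO and 11 in p30 Tm, and had no peak in either p42 list. The neighbouring region at 36482164 to 36482333 held 10, 18, 12 and 9 tags in the same lists and again had no peak in p42 cells. The promoter peak was thus called without its intronic neighbours in p42 cells alone among the 6 lists, although a region without a call has no value in the files and is not shown to be closed. An upstream region 9.8 kb from the start site, at 36492419 to 36493016, was highest in EV DMSO with 34 tags, against 21 in EV Tm, 23 in p30 DMSO, 19 in p30 Tm, 22 in p42 DMSO and 16 in p42 Tm. Its tags per depth in p42 DMSO were 0.480 times those in EV DMSO (0.268 to 0.845), and its summit carried the GATA letters AGATAAG. The regions with the highest percentiles of the window lay at the promoters of the neighbouring genes MRPS15 and OSCP1, and outside promoters a region in MRPS15 (36457607 to 36458105) held 23 to 34 tags and RUNX letters.

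**Figure D1:**
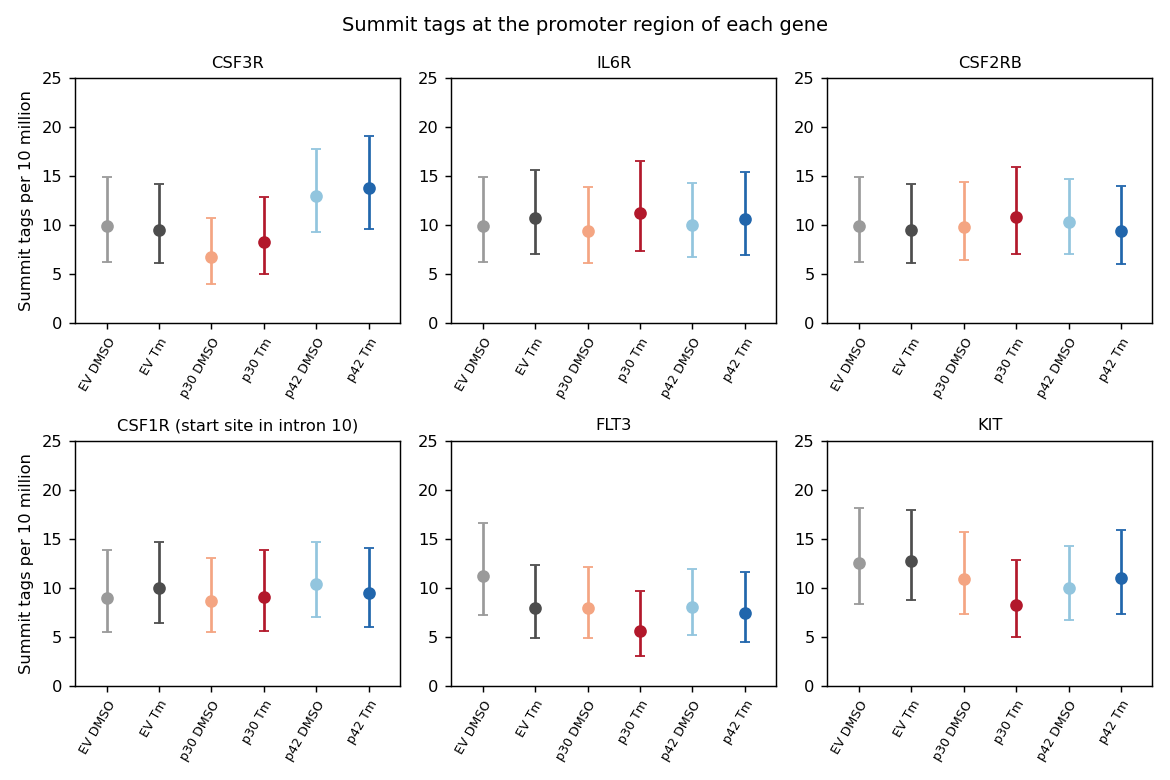
Tags at the summit of the promoter region of each receptor gene per 10000000 estimated tags (y axis), in the 6 lists (x axis), with the start site in intron 10 for CSF1R. Points are values of the pooled lists and bars are exact 95% Poisson intervals for counting error. Of the 6 promoters, CSF3R shows the widest gap between p42 DMSO and p30 DMSO, 39 against 18 tags before scaling.

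IL6R encodes the ligand-binding chain of the interleukin-6 receptor (chromosome 1, 154405193 to 154469450, plus strand). Its promoter region, at 154405084 to 154405984, held 22 tags in EV DMSO, 27 in EV Tm, 25 in p30 DMSO, 26 in p30 Tm, 30 in p42 DMSO and 27 in p42 Tm. The ratio of p42 DMSO to p30 DMSO per depth was 1.06 (0.604 to 1.88), so a difference was not detectable at this depth. The start site of the antisense gene IL6R-AS1 falls in the same region. The contrast lay in intron 3, where a region at 154432707 to 154433049, 27.5 kb into the gene, held 5 tags in EV DMSO, 13 in EV Tm, 12 in p30 DMSO, 10 in p30 Tm, 24 in p42 DMSO and 24 in p42 Tm. Both p42 lists were the highest, and their percentiles of 86.0 and 90.8 compared with 9.4 in EV DMSO and 65.2 in p30 DMSO. The tags per depth in p42 DMSO were 3.56 times those in EV DMSO (1.33 to 12) and 1.77 times those in p30 DMSO (0.851 to 3.88).

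This intron 3 region was flanked by others called in the p42 lists alone, at 154431607 to 154431734 (12 tags in p42 DMSO and 8 in p42 Tm) and at 154433539 to 154433771 (7 and 6 tags). A further region of that kind, with 12 tags in each p42 list, lay in the last exon at 154465927 to 154466056. The first of these 3 regions held the AP-1 letters 38 bp from its summit. Beyond the end of IL6R, within SHE, a region at 154497072 to 154497355 ranked lower in p42 cells, with 15 tags in p42 DMSO against 27 in p30 DMSO, a ratio per depth of 0.492 (0.243 to 0.958). It held 22 tags in EV DMSO, 26 in EV Tm, 18 in p30 Tm and 15 in p42 Tm. The largest shift of the window went the same way, at a weak SHE promoter region (154485219 to 154485472) with percentile 66.0 in p30 DMSO and 26.6 in p42 DMSO. In intron 9 of IL6R a region with AP-1 letters, at 154463592 to 154464188, held 28 tags in EV DMSO, 23 in EV Tm, 25 in p30 DMSO, 19 in p30 Tm, 20 in p42 DMSO and 17 in p42 Tm, and its ratio of p42 DMSO to EV DMSO per depth was 0.530 (0.283 to 0.975). The strongest regions outside promoters lay in intron 1 at 154420261 to 154420519, with 22 to 32 tags, and 31.2 kb upstream at 154373924 to 154374420, with 16 to 27 tags.

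CSF2RB encodes the beta chain shared by the receptors for interleukin-3, interleukin-5 and granulocyte-macrophage colony-stimulating factor (chromosome 22, 36913628 to 36940439, plus strand). Its promoter region, at 36913301 to 36914431, held between 22 and 31 tags in the 6 lists, and the ratio of p42 DMSO to p30 DMSO per depth was 1.06 (0.606 to 1.85). A region in intron 3, at 36923582 to 36923761, had a peak in the p42 lists alone, with 19 tags and percentile 75.8 in DMSO and with 15 tags and percentile 67.8 in Tm. It was the strongest of the 50 regions called in p42 DMSO and not in p30 DMSO, and a start site of another CSF2RB transcript lies within 1000 bp of it. None of the motifs searched was found at its summit.

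Upstream of CSF2RB, 13.2 kb from the start site, a region at 36900324 to 36900744 held 9 tags in EV DMSO, 10 in EV Tm, 11 in p30 DMSO, 12 in p30 Tm, 24 in p42 DMSO and 16 in p42 Tm, and the PU.1 letters lay 35 bp from its summit. The p42 values were again the highest, yet the ratio of p42 DMSO to p30 DMSO per depth, 1.93 (0.910 to 4.37), did not exclude equality. Downstream of the gene, a region at 36952214 to 36952591 with the RUNX letters held 9 tags in EV DMSO, 9 in EV Tm, 11 in p30 DMSO and 9 in p30 Tm and had no peak in either p42 list. The most open regions of the window, at 36977390 to 36977821 and 36978097 to 36978330, lay 63.9 and 64.6 kb downstream of the start site and were called in every list. Between the promoter and the PU.1 region, at 36904619 to 36904769, a region held 9 tags in EV DMSO, 11 in EV Tm, 9 in p30 DMSO and 15 in p42 DMSO and had no peak in p30 Tm or p42 Tm.

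CSF1R encodes the receptor for macrophage colony-stimulating factor and interleukin-34 (chromosome 5, 150053291 to 150113372, minus strand). At the canonical start site a region of 255 bp, at 150086449 to 150086703, had a peak in p42 DMSO alone, with 18 tags (exact 95% Poisson interval 10.7 to 28.4) at percentile 54.9. The RUNX letters in it lay 65 bp upstream of the start site. In every other list the promoter had no call, including p42 Tm. The strongest promoter region by the rule used for all members lay instead in intron 10, at 150066950 to 150067730, near a start site of another CSF1R transcript. It held 20 tags in EV DMSO, 25 in EV Tm, 23 in p30 DMSO, 21 in p30 Tm, 31 in p42 DMSO and 24 in p42 Tm, and carried the AP-1 letters.

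The first intron of CSF1R held a region at 150081696 to 150082825 that was open throughout, with 38 to 43 tags and percentiles of 92.8 to 95.3 in all 6 lists. The region with the highest percentile of the window lay in PDGFRB, at 150154325 to 150154583, with 36 or 37 tags in every list. Beside the gene, some regions were weaker or missing in the p42 lists. A region at 150050336 to 150050548, downstream of CSF1R and within HMGXB3, held 20 tags in EV DMSO, 19 in EV Tm, 29 in p30 DMSO, 20 in p30 Tm and 12 in p42 DMSO, with no peak in p42 Tm. Its tags per depth in p42 DMSO were 0.366 times those in p30 DMSO (0.170 to 0.740) and 0.445 times those in EV DMSO (0.198 to 0.956), and the AP-1 letters lay 4 bp from its summit. A weaker region at 150022187 to 150022449, also with AP-1 letters, held 5 tags in EV DMSO, 8 in EV Tm, 8 in p30 DMSO and 7 in p30 Tm and was not called in p42 cells. A region within PDGFRB, at 150119483 to 150119637, behaved alike in the calls, with 16, 8, 13 and 10 tags in those lists.

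FLT3 encodes the receptor for FLT3 ligand (chromosome 13, 28003274 to 28100592, minus strand). Its promoter region, at 28099947 to 28101003, was not higher in p42 cells: it held 25 tags in EV DMSO, 20 in EV Tm, 21 in p30 DMSO, 13 in p30 Tm, 24 in p42 DMSO and 19 in p42 Tm. The ratio of p42 DMSO to p30 DMSO per depth was 1.01 (0.539 to 1.91). Intronic regions differed more. In intron 4, 47.4 kb into the gene, a region at 28052887 to 28053284 held 5 tags in EV DMSO, 10 in p30 DMSO, 29 in p42 DMSO and 21 in p42 Tm and had no peak in EV Tm or p30 Tm. Its tags per depth in p42 DMSO were 2.57 times those in p30 DMSO (1.22 to 5.90) and 4.30 times those in EV DMSO (1.65 to 14.2), and its percentile was 86.2 in p42 DMSO, 39.2 in p30 DMSO and 0.1 in EV DMSO. The CEBP:AP1 letters lay 37 bp from the summit.

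In intron 9, a region at 28041156 to 28041600 held 11 tags in EV DMSO, 12 in EV Tm, 13 in p30 DMSO, 11 in p30 Tm, 30 in p42 DMSO and 25 in p42 Tm. The 4 lists without p42 lay between 11 and 13 tags, and the ratio of p42 DMSO to p30 DMSO per depth was 2.04 (1.03 to 4.27). Upstream of the gene, 28.5 kb from the start site, a region at 28129023 to 28129302 held 5 tags in EV DMSO, 6 in EV Tm, 8 in p30 DMSO, 7 in p30 Tm, 20 in p42 DMSO and 14 in p42 Tm. It had the largest shift in percentile between p30 DMSO and p42 DMSO of any region in the 6 loci, from 28.7 to 78.0, and 2.97 times as many tags per depth in p42 DMSO as in EV DMSO (1.08 to 10.1). By contrast, the widest and strongest intronic region, at 28031363 to 28032899 in intron 15, held 44 tags in EV DMSO, 42 in EV Tm, 42 in p30 DMSO, 40 in p30 Tm, 55 in p42 DMSO and 45 in p42 Tm. Its percentiles lay between 95.8 and 98.8, and it held a CEBP and a PU.1 match, while its rank differed little between the isoforms. A region in intron 1, at 28077178 to 28077487, had no peak in EV DMSO and held 10 tags in EV Tm, 6 in p30 DMSO, 8 in p30 Tm, 13 in p42 DMSO and 16 in p42 Tm. The most highly ranked region of the window lay 102.4 kb downstream of the start site, at 27997851 to 27998225 beyond the end of FLT3, and held 30 to 44 tags in the 6 lists with the highest value in p42 DMSO. Directly upstream of the promoter, a region at 28101730 to 28101847 was called in p30 Tm (16 tags), p42 DMSO (13 tags) and p42 Tm (12 tags) and in no other list.

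**Figure D2:**
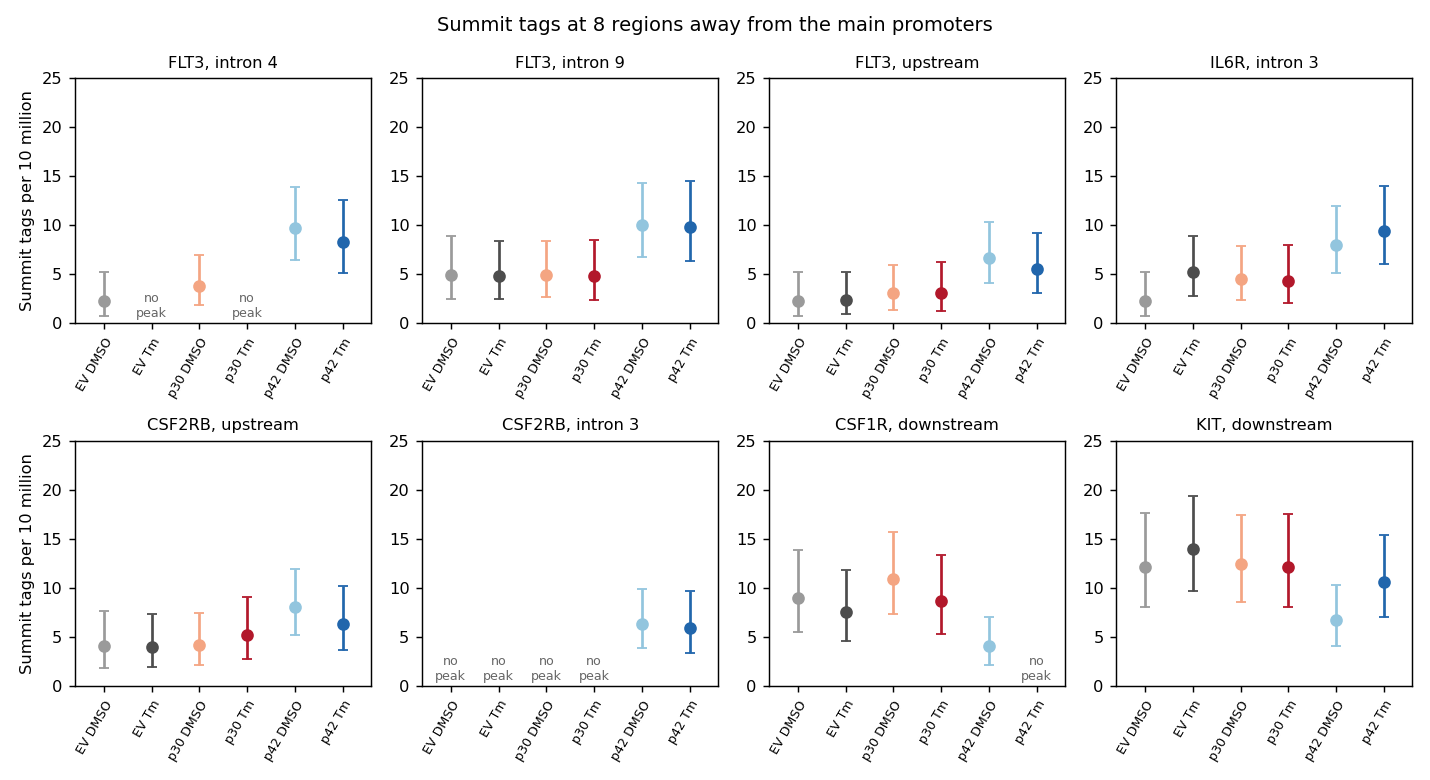
Tags at the summit per 10000000 estimated tags (y axis) at 8 regions outside the main promoters, in the 6 lists (x axis), with exact 95% Poisson intervals for counting error. The FLT3, IL6R and CSF2RB regions are highest in the p42 lists, the CSF1R region is lowest in p42 DMSO among the lists that call it, the KIT region is lowest in p42 DMSO, and "no peak" marks a list without a call.

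KIT encodes the receptor for stem cell factor (chromosome 4, 54657267 to 54740783, plus strand). Its window had the highest share of regions called in all 6 lists, 13 of 21, and the fewest regions per kb. The promoter region, at 54657767 to 54658254, held 28 tags in EV DMSO, 32 in EV Tm, 29 in p30 DMSO, 19 in p30 Tm, 30 in p42 DMSO and 28 in p42 Tm. The p30 Tm value was the lowest, and the ratio of p30 Tm to p30 DMSO per depth was 0.753 (0.399 to 1.39). A neighbouring promoter region 0.8 kb into the gene, at 54658357 to 54659034, did not share the low value, with 26 tags in p30 DMSO and 29 in p30 Tm. Downstream of KIT, 88.5 kb from the start site, a region at 54745936 to 54746952 held 27 tags in EV DMSO, 35 in EV Tm, 33 in p30 DMSO, 28 in p30 Tm, 20 in p42 DMSO and 27 in p42 Tm. Its tags per depth in p42 DMSO were 0.536 times those in p30 DMSO (0.292 to 0.963), whereas in Tm the ratio of p42 to p30 was 0.875 (0.496 to 1.54). In intron 1, 30.5 kb into the gene, a region at 54687760 to 54688693 with RUNX letters held 25 to 34 tags, with the highest value in p30 DMSO. The largest p42 to p30 shift of the window was at a weak region 111.0 kb downstream of the start site (54768805 to 54768966), at percentile 65.9 in p42 DMSO, 33.4 in p30 DMSO and 21.2 in p42 Tm. KIT had no region called in both p42 lists alone and none called in all lists but the p42 lists.

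**Figure D3:**
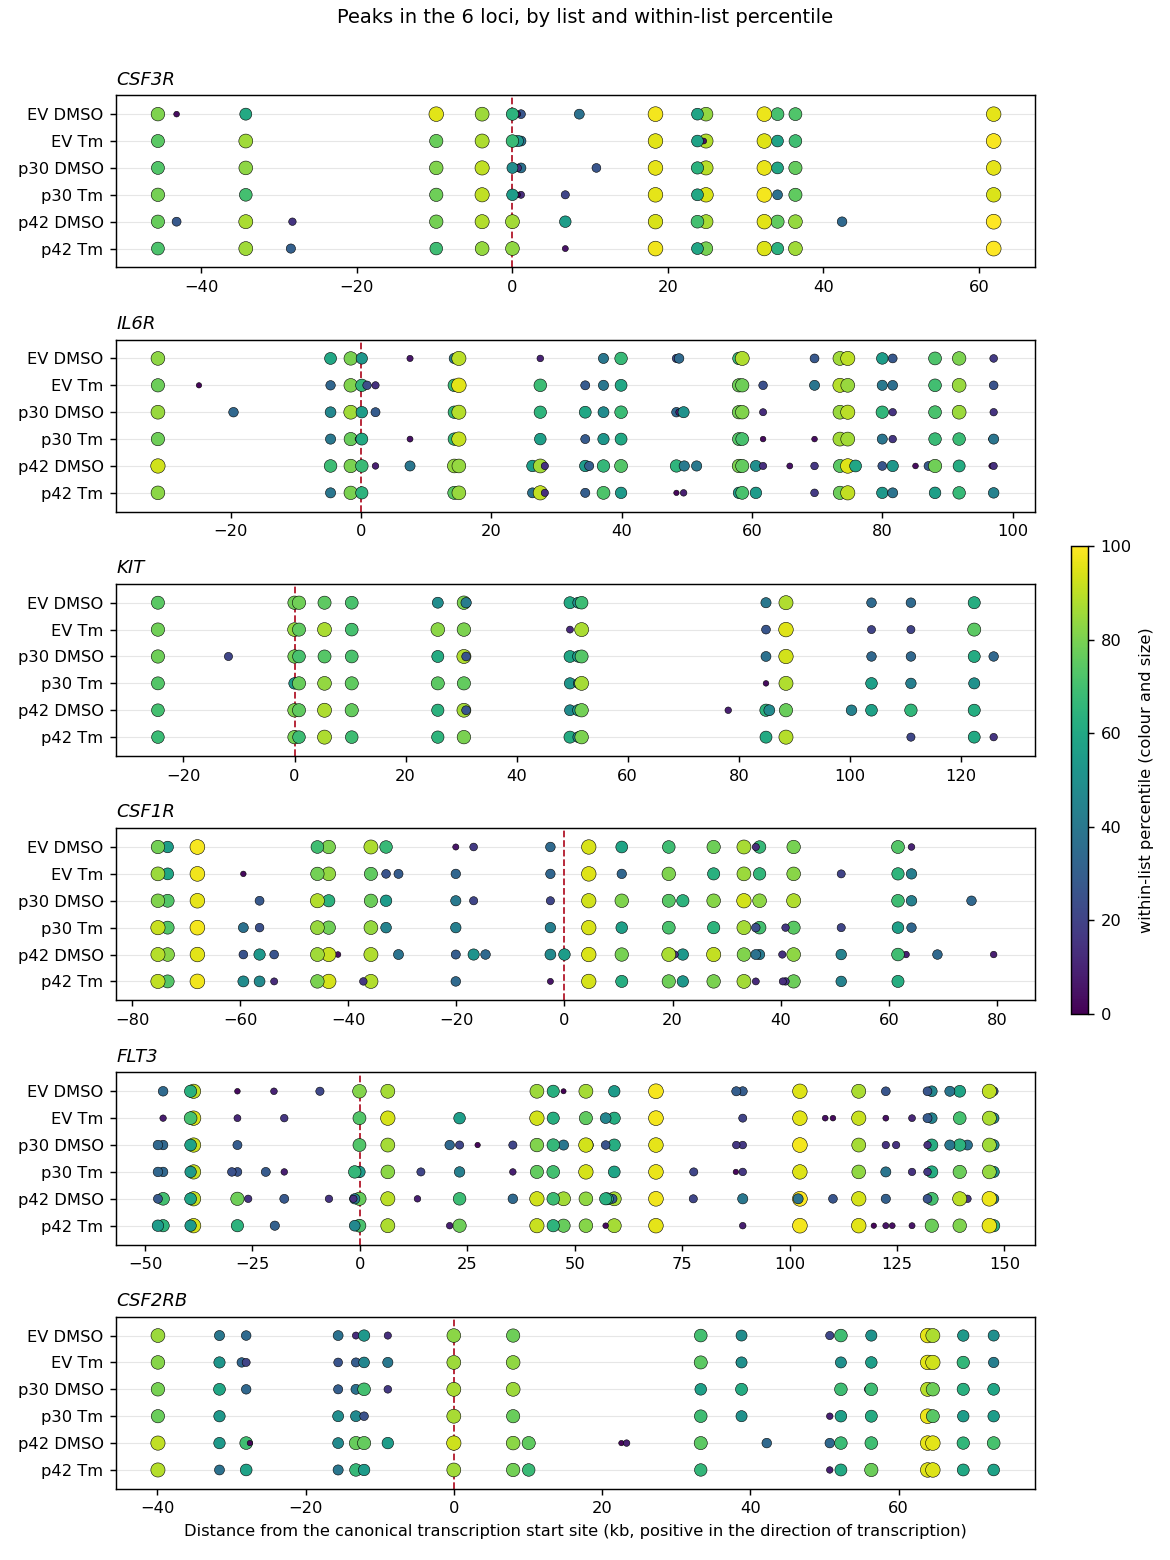
Every region of the 6 loci by its distance from the canonical start site in kb (x axis, positive in the direction of transcription, dashed line at 0) and by list (y axis). Colour and size give the within-list percentile. Most strong regions recur in all 6 lists, and the additional points of the p42 DMSO list are mostly weak.

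Over the 6 loci together, 91 of the 203 regions were called in all 6 lists (44.8%, Wilson 95% interval 38.1 to 51.7), against 32.2% of all common regions. A further 60 had a peak in 1 list only (29.6%), against 34.2% of all common regions. Regions within 1000 bp of a start site numbered 45 of 203, or 22.2%, against 15.5% of all common regions. The number of regions with a peak was 117 in EV DMSO, 120 in EV Tm, 130 in p30 DMSO, 125 in p30 Tm, 161 in p42 DMSO and 125 in p42 Tm. In that order these were 57.6%, 59.1%, 64.0%, 61.6%, 79.3% and 61.6% of the 203. Over all common regions the shares were 50.4%, 52.0%, 56.1%, 49.4%, 69.3% and 56.8%, so p42 DMSO had the highest share there too. The p42 DMSO list was also the longest and the deepest of the 6 lists, with 254239 peaks and an estimated 29980000 tags against 187704 to 221501 peaks and 22250000 to 26530000 tags in the others. With peaks kept only if they would still pass at the depth of the shallowest list, 47 of the regions of p42 DMSO lacked a peak in p30 DMSO in place of 50, and with the same number of peaks in each list 28 did.

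**Figure D4:**
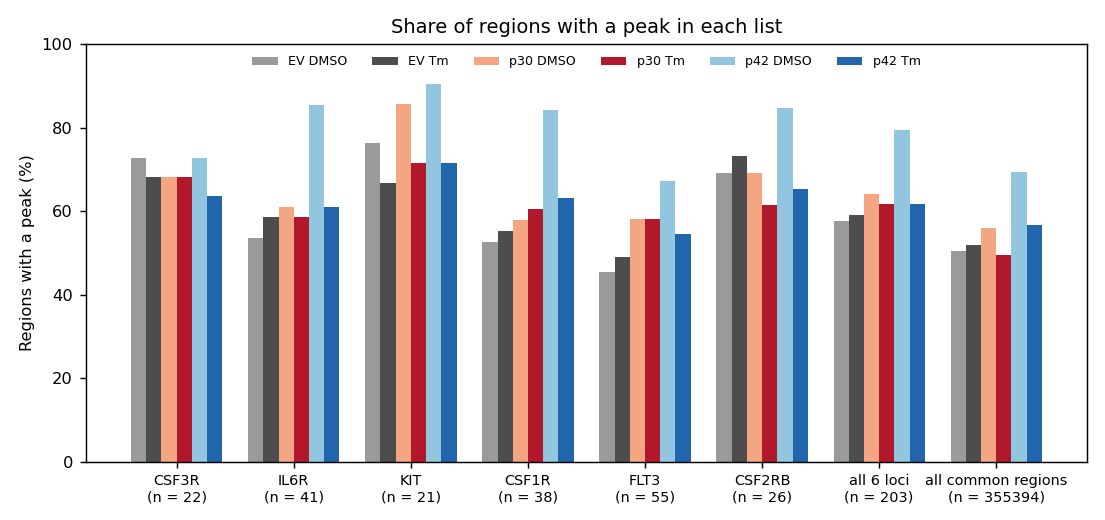
Share of regions with a peak (y axis, %) in each of the 6 lists (bars), for each locus, for the 6 loci together and for all common regions. The p42 DMSO bar is the highest or level with the highest in every group, in all common regions too.

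How far p42 and p30 differed was first asked by presence. Of the 161 regions with a peak in p42 DMSO, 50 had none in p30 DMSO (31.1%), below the 36.1% found over all common regions. In the other direction it was 19 of 130 (14.6%) against 21% over all regions. With the same number of peaks in each list the counts were 28 and 22, so the excess on the p42 side was largely gone. Over all common regions the shares were then 26.0% and 25.2%. The counts of regions called in one list and not in the other were therefore not above the background at these genes. The 50 regions were mostly weak, with a median of 8 tags and a median percentile of 27.7, and 6 of them lay at percentile 50 or above in p42 DMSO. These 6 were the CSF2RB intron 3 region, the CSF1R start site, the IL6R intron 3 region with AP-1 letters, and regions in intron 3 of CSF3R, in intron 9 of FLT3 and in SHE beyond IL6R. Against EV DMSO, p42 DMSO had 55 of 161 regions not called in EV (34.2%, background 39.9%) and lacked 11 of the 117 EV regions (9.4%, background 17.3%). Between p30 DMSO and EV DMSO, 21 of 130 regions were not called in EV (16.2%, background 26%) and 8 of 117 not called in p30 (6.84%, background 17.7%).

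Strength, rather than presence, was compared over the 111 regions called in both DMSO lists. The percentile was at least 20 points higher in p42 than in p30 at 23 of them (20.7%, background 18.2%) and at least 20 points lower at 5 (4.5%, background 8.23%). The median difference was 4.96 points over the 6 loci and 3.16 points over all common regions. It was 9.91 points at FLT3, where 21 of 26 regions ranked higher in p42, and 8.93 points at CSF2RB, where 13 of 16 did (80.8% and 81.2%, against 61.8% of all common regions). Lower medians were found at CSF3R (3.84 points), IL6R (2.97 points), KIT (2.45 points) and CSF1R (1.64 points). Counting error left few of these shifts: the exact 95% interval of the ratio of tags per depth lay above 1 at 3 of 111 regions (2.7%, background 0.805%), the CSF3R promoter and the intron 4 and intron 9 regions of FLT3. It lay below 1 at 3 regions (2.7%, background 1.29%), the KIT and CSF1R downstream regions described above and the region in SHE. Against EV DMSO, the interval lay above 1 at 3 of 106 regions (2.83%, background 0.425%), those of IL6R intron 3, FLT3 intron 4 and FLT3 upstream, and below 1 at 3 (2.83%, background 2.61%), the CSF3R upstream region, IL6R intron 9 and the CSF1R downstream region. Both comparisons share the p42 DMSO list. Over all common regions called in both lists, the median ratio was 0.973 for p42 to p30 and 0.887 for p42 to EV. Against EV DMSO, the intervals of IL6R intron 9 and the CSF1R downstream region include 0.887. Between p30 DMSO and EV DMSO no region of 109 had an interval above 1 (background 0.0197%), and the CSF3R upstream region had one below 1 (0.917%, background 0.218%). The median ratio of p30 to EV over all common regions was also below 1, at 0.917.

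Against EV DMSO, the percentile was at least 20 points higher in p42 DMSO at 28 of 106 regions (26.4%, background 22.8%) and lower by that much at 2 (1.89%, background 6.6%). The median difference was 7.09 points over the 6 loci and 6.0 points over all common regions, and it reached 12.05 points at CSF2RB and 12.01 at CSF1R. In p30 DMSO the percentile was at least 20 points higher than in EV DMSO at 10 of 109 regions (9.17%, background 13.4%) and lower at 1 (0.917%, background 6.82%).

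**Figure D5:**
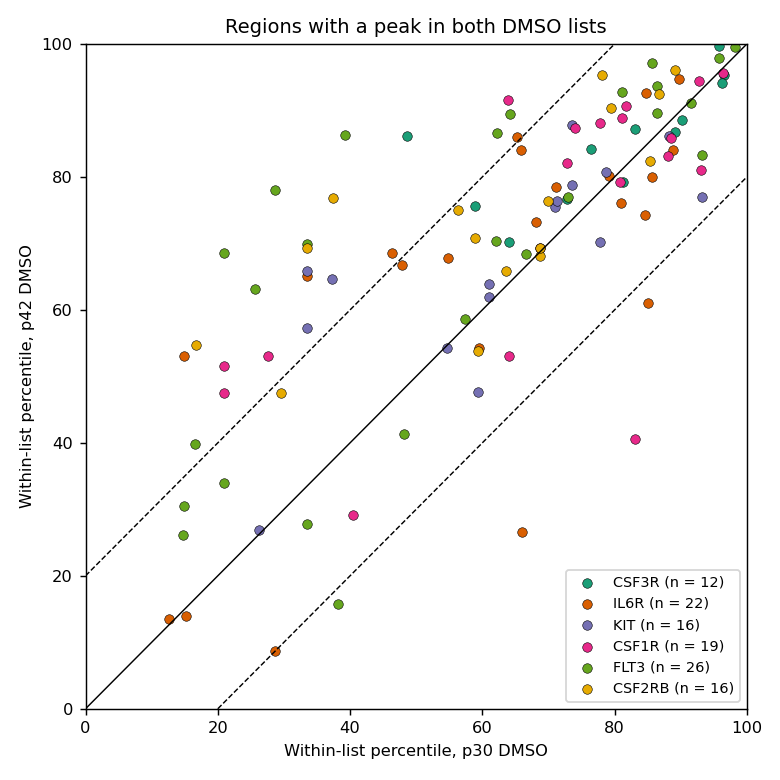
Within-list percentile in p30 DMSO (x axis) and in p42 DMSO (y axis) of the 111 regions of the 6 loci with a peak in both lists, coloured by gene. The solid line marks equal rank and the dashed lines a difference of 20 points, which 23 regions reach or pass above and 5 below.

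Regions called in both p42 lists and in no other numbered 5 of 203 (2.46%), below the 4.58% over all common regions. They were the 3 IL6R regions and the CSF2RB region given above and a weak region in PDGFRB. The opposite pattern, a peak in both p30 and both EV lists and in neither p42 list, was found at 5 regions (2.46%), against 0.802% of all common regions. These were the pair in intron 1 of CSF3R, the downstream region of CSF1R with AP-1 letters, the one in PDGFRB and the one downstream of CSF2RB. None of the 203 regions was called in both p30 lists alone (background 0.618%), in both EV lists alone (background 0.558%) or in both p42 and both EV lists without p30 (background 0.462%). A peak in all p42 and p30 lists without EV was found at 2 regions (0.985%, background 0.626%), a weak region in PDGFRB and one in PAN3 beyond FLT3. Regions called in all 3 Tm lists and in no DMSO list numbered 1 (0.493%, background 0.202%), and those called in all 3 DMSO lists and in no Tm list numbered 2 (0.985%, background 0.506%).

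The count of calls changed most with tunicamycin in p42 cells, whose DMSO list was the longest and deepest. The shares gained and lost there were not above those over all common regions. Of 161 regions called in p42 DMSO, 48 had no peak in p42 Tm (29.8%), close to the background of 31.1%, and 12 of the 125 regions of p42 Tm were new (9.6%, background 16%). In p30 cells 23 of 130 regions were lost (17.7%, background 27.2%) and 18 of 125 gained (14.4%, background 17.3%). In EV cells 15 of 117 were lost (12.8%, background 20%) and 18 of 120 gained (15%, background 22.5%). The regions lost in p42 cells had a median of 8 tags and reached at most 18 tags, at the CSF1R start site. After tunicamycin, p42 and p30 cells each had 125 regions, and 19 of the regions of either list were not called in the other (15.2%, against backgrounds of 30.8% for p42 and 20.4% for p30). With the same number of peaks in each list these became 10 for p42 and 27 for p30. Over all common regions the shares were then 24.1% and 25.3%. Compared with EV Tm, 25 of 125 regions were called in p42 Tm but not in EV Tm (20%, background 29.2%) and 17 of 125 in p30 Tm but not in EV Tm (13.6%, background 19%). Of the 120 regions of EV Tm, 20 were not called in p42 Tm (16.7%, background 22.6%) and 12 not called in p30 Tm (10%, background 23.1%).

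Ranks moved with tunicamycin at a minority of regions. In p42 cells the percentile rose by at least 20 points at 5 of 113 regions (4.42%, background 5.45%) and fell by as much at 14 (12.4%, background 15.9%), with a median change of -3.89 points at the 6 loci and -2.94 points over all common regions. In p30 cells it rose at 5 of 107 regions (4.67%, background 6.31%) and fell at 8 (7.48%, background 13.5%), and in EV cells it rose at 8 of 102 (7.84%, background 11.5%) and fell at 6 (5.88%, background 8.15%). Between the lines in Tm, p42 ranked at least 20 points above p30 at 15 of 106 regions (14.2%, background 16.5%) and below it at 5 (4.72%, background 8.84%). Against EV Tm, p42 Tm ranked higher at 15 of 100 regions (15%, background 13.9%) and lower at 4 (4%, background 10.4%), and p30 Tm ranked higher at 9 of 108 (8.33%, background 7.5%) and lower at 10 (9.26%, background 11.5%). No region called in both p42 lists or in both p30 lists had a ratio of tags per depth between Tm and DMSO whose interval excluded 1, with backgrounds of 0.156% above and 0.0466% below in p42 cells and 0.201% and 0.0283% in p30 cells. In EV cells the CSF3R upstream region alone had an interval below 1 (0.98% of 102 regions, background 0.133%), with a ratio of 0.547 (0.302 to 0.970), and no region had one above 1 (background 0.0412%). That interval includes 0.941, the median ratio of EV Tm to EV DMSO over all common regions. With tunicamycin in both lines, the ratio of p42 to p30 per depth was 1.67 (0.930 to 3.09) at the CSF3R promoter, 2.06 (0.979 to 4.64) at FLT3 intron 9 and 2.18 (1.00 to 5.10) at IL6R intron 3. The last was the only one of 106 regions whose interval lay above 1 (0.943%, background 0.585%), and none lay below 1 (background 1.13%).

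Sequence was searched within 100 bp of the strongest summit of each region, by exact matches on both strands. CEBP letters (TTGCGCAA or TTGCACAA) were found in 7 of 203 regions (3.45%, Wilson interval 1.68 to 6.95) against 1.58% of all common regions, and 5 of the 7 were in the FLT3 window (5 of 55, 9.09%, interval 3.95 to 19.6). CEBP:AP1 letters were found in 2 regions (0.985%, against 1.16%), and both of these, the CSF3R promoter and FLT3 intron 4, were among the 3 regions whose ratio of p42 DMSO to p30 DMSO had an interval above 1. The regions with either motif numbered 9, of which 7 had a peak in p42 DMSO (77.8%), 5 in p30 DMSO (55.6%) and 3 in EV DMSO (33.3%). The shares of all common regions, with or without a motif, were 69.3%, 56.1% and 50.4%. Of the 5608 common regions with CEBP letters, 2823 had a peak in p42 DMSO and none in p30 DMSO, and 223 the reverse. Of the 7 at these loci, 2 and 0 did. The 3 CEBP regions called in both had a median percentile difference of -5.26 points, with 1 higher and 2 lower in p42. Of the 50 regions called in p42 DMSO and not in p30 DMSO, 2 held the CEBP letters (4%), near the 3.18% of all common regions called in that way. The CEBP:AP1 matches depended on the window. Within 50 bp of the summit 1 region held these letters (0.493%, against 0.633%), and the CSF3R promoter did not. Within 250 bp 4 regions did (1.97%, against 2.22%), in the windows of CSF3R, KIT and FLT3.

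AP-1 letters (TGACTCA) were found in 18 regions (8.87%, against 9.48%), unevenly over the loci, with 7 of 41 regions at IL6R, 6 of 38 at CSF1R and 1 of 55 at FLT3. Of these 18, 15 had a peak in p42 DMSO (83.3%) and 14 in each of p30 DMSO and EV DMSO (77.8%). Over all common regions, with or without these letters, the shares were 69.3%, 56.1% and 50.4%. The median percentile difference between p42 and p30 over the 13 called in both was -4.78 points, against 3.16 points over all common regions. PU.1 letters (GAGGAAGT) were found in 16 regions (7.88%, against 6.86%), RUNX letters (TGTGGTT or TGCGGTT) in 17 (8.37%, against 9.99%) and GATA letters in 12 (5.91%, against 3.22%). The ATF4 letters TGATGCAA were found in 1 weak region upstream of FLT3 (0.493%, against 1.25%), which was called in EV DMSO alone with 5 tags. The STAT letters TTCCNGGAA were found in 1 region, within CSF1R (0.493%, against 0.440%). ATF4 is the factor that stressed cells use to induce amino acid and redox genes. A match is a description of the sequence and not a bound site.

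The partners of the receptors were compared at their promoters only. Of 34 genes of the pathway, 33 had a promoter peak in at least 1 list and 32 in all 6 lists. The share over the promoters of all genes is not given here, so these counts describe the listed genes and do not set them apart. The ligands numbered 8, of which 7 had a promoter peak in some list and 6 in all. IL3 had none, and CSF3, the ligand of CSF3R, was called in EV DMSO, EV Tm and p30 Tm, at percentiles of 12.5, 36.3 and 38.9. The 6 other receptor chains, the 12 signal transducers, with the JAK and STAT genes among them, and the 8 inhibitors were called in every list. Of the 32 genes called in both DMSO lists, SOCS2, a feedback inhibitor of cytokine signalling, ranked at least 20 points higher in p42 than in p30, at percentiles of 79.3 and 58.9. The median difference over these 32 genes was 2.65 points.

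As a check of the cell type, promoter peaks were listed for markers of several lineages. All 7 myeloid markers, CSF3R among them, had a promoter peak in every list, and that of the neutrophil elastase gene ELANE was weak, at percentiles of 1.4 to 37.7. A promoter peak was not particular to the myeloid markers, since all 3 T cell markers, 2 of 3 B cell markers, 1 of 2 liver markers and both epithelial markers also had one in at least 1 list. In every list, as for the myeloid markers, a promoter peak was found at 2 of 3 T cell, 2 of 3 B cell, 0 of 2 liver and 1 of 2 epithelial markers. The windows overlapped other genes, namely MRPS15 and OSCP1 beside CSF3R, SHE and TDRD10 beside IL6R, NCF4 beside CSF2RB, PDGFRB and HMGXB3 beside CSF1R, and CDX2, URAD and PAN3 beside FLT3, so a region is tied to a receptor gene here by distance only.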

How the data were processed

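KO-52 libraries were grouped by vector and treatment as the labels give them. Per the labels and the methods, the authors trimmed reads with Trim Galore 0.6.6, mapped to hg38 using Bowtie2 2.4.4 and filtered out duplicates (Picard), and MACS2 peaks were then called on the pooled replicates of each group. The methods describe ChIP-seq and ATAC-seq together, and a Tn5 shift or mitochondrial filter is not given in the sources used here. The deposited score of each peak was not used. The deposited fold enrichment is a ratio of summit pileup to local background, and the deposited −log10 p and −log10 q refer to that background. None is normalized between lists, and the lowest −log10 q was 1.3.

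Pileup (summit tags) and background were solved from the fold and the Poisson p-value of every peak, giving whole tags for 100% of peaks within 0.001 of −log10 p, after a test on simulated data. Depth was estimated from the lowest background, a genome of 2700000000 bp and the shortest peak width as the fragment length. Percentiles are mid-ranks of −log10 q within a list, and a shift is 20 points. Ratios of tags per depth have exact conditional (Clopper-Pearson) 95% intervals, a measure chosen after the percentiles were seen. Summit tags are maxima, so that values near the lowest called pileup of 4 tags are selected to be high. A peak set was compared by any overlap with a common region. Genes come from GENCODE 44. With 1 pooled list per group there was no test and no paired or replicate-based error.

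Regions were named by rule: in each locus the strongest promoter region, the 2 strongest other regions, those called in the p42 lists alone or in all but those, the largest p42 to p30 shift, and the strongest gained and lost with tunicamycin. Named besides, after their values were seen, were regions whose ratio interval excluded 1, regions at percentile 50 or above in p42 DMSO without a p30 call, the neighbouring KIT promoter region, and the regions with ATF4 or STAT letters. Weak regions gained or lost with tunicamycin are given as counts. The members and lists were chosen with earlier results of these data known. Alternatives were a −log10 q of at least 5, equal list lengths, depth scaling, a 50% coverage of the common region, a 10 kb flank, other ranks, and motif windows of 50 and 250 bp. Python 3.11.15, numpy 2.4.6, scipy 1.17.1, pandas 2.3.3, pysam 0.24.0 and matplotlib 3.10.9 were used. Values of single genes in the pathway and marker lists that are not named are not reported here.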

Additional observations from a re-analysis of the deposited data

Results flagged for a closer look

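The number of regions with a peak over the 6 loci moved in opposite directions with tunicamycin in different lines. It rose by 3 in EV cells, and the change was -5 in p30 cells and -36 in p42 cells. The directions were the same over all common regions, so they were not particular to these loci. There the number with a peak went from 179077 to 184733 in EV cells. It went from 199244 to 175520 in p30 cells and from 246210 to 201803 in p42 cells. With 1 pooled list per group this difference was not tested, and the rise in EV cells was not kept under most alternatives. The p42 DMSO list held an estimated 29980000 tags and the p42 Tm list 25440000, against 22250000 and 25130000 in EV cells, and with peaks kept only if they would pass at the shallowest depth the changes were 3, -4 and -33. With the same number of peaks in each list they were -3 in EV cells, -3 in p30 cells and -26 in p42 cells. With a −log10 q of at least 5 they were -2, -2 and -11, with a flank of 10 kb -2, -4 and -23, and with 50% coverage 0, -15 and -55. The opposite direction in EV cells was thus kept under 1 of 5 alternatives.

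The KIT promoter region also moved in opposite directions. Its percentile changed by 5.64 points in EV cells, by -24.16 points in p30 cells and by -1.3 points in p42 cells. The difference was not tested, and a neighbouring KIT promoter region held 26 tags in p30 DMSO and 29 in p30 Tm. The ratio of tags per depth at the first region between Tm and DMSO in p30 cells, 0.753 (exact 95% interval 0.399 to 1.39), did not exclude equality.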

How the results depend on the processing

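No paired analysis was possible because each list pools its replicates, and for the same reason no replicate could be left out. The 14 counts of regions called in one list and not in the other were recomputed under 5 alternatives. When depth was scaled to the shallowest list, all 14 stayed within 1.5 times of their value. With a −log10 q of at least 5, all 14 fell by more. The shares over all common regions fell too, to 15.8% and 5.82% for p42 and p30 in DMSO. They became 18.8% and 4.65% for p42 and EV in DMSO, 6.97% and 3.61% for p30 and EV in DMSO, and 12.6% and 5.97% for p42 and p30 in Tm. The p42 DMSO and p30 DMSO counts became 13 and 6, those of p42 DMSO and EV DMSO 18 and 4, those of p30 DMSO and EV DMSO 4 and 1, and those of p42 Tm and p30 Tm 5 and 4. Regions gained and lost with tunicamycin became 0 and 11 in p42 cells, 2 and 4 in p30 cells and 2 and 4 in EV cells. Over all common regions the shares gained and lost were then 3.35% and 9.35% in p42 cells. They were 3.89% and 7.39% in p30 cells and 6.01% and 4.54% in EV cells. With a flank of 10 kb the counts became 29 and 10 for p42 and p30 in DMSO, 33 and 7 for p42 and EV, 12 and 5 for p30 and EV, and 11 and 11 for p42 and p30 in Tm. The gains and losses became 5 and 28 in p42 cells and 10 and 14 in p30 cells, with 9 gains in EV cells, as a smaller window holds fewer regions. With the same number of peaks in each list, 28 regions were called in p42 DMSO and not in p30 DMSO in place of 50, 31 in p42 DMSO and not in EV DMSO in place of 55, and 10 in p42 Tm and not in p30 Tm in place of 19, and the other 11 counts stayed within 1.5 times, although 27 regions were then called in p30 Tm and not in p42 Tm in place of 19, and 22 in p30 DMSO and not in p42 DMSO in place of 19. When a peak had to cover 50% of the common region, 20 regions were called in EV DMSO and not in p42 DMSO, 15 in EV DMSO and not in p30 DMSO, 29 in p42 Tm and not in p30 Tm, 40 in p30 DMSO and not in p30 Tm, and 23 in EV DMSO and not in EV Tm. Over all common regions the shares were then 30.6%, 29.4%, 46.0%, 42.6% and 35.4%, in the same order.

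Of the 23 regions that ranked at least 20 points higher in p42 DMSO than in p30 DMSO, 17 did so among equal numbers of peaks and 21 by fold enrichment, and among regions called in all 6 lists 11 of the 14 that could be ranked did. The 5 lower regions kept their direction wherever they could be ranked, with 4 of 5 at 20 points or more by fold enrichment. The IL6R intron 3 region (18.4 points by fold enrichment and 19.5 among equal numbers of peaks) and the FLT3 intron 9 region (18.6 points by fold enrichment) fell just under 20 points. Of the 36 promoter percentiles of the receptor genes, 34 moved by 10 points or more among regions called in all 6 lists, 18 by fold enrichment and 1 among equal numbers of peaks. Depth limits the values: with 4 tags as the lowest summit called, a region without a peak cannot be told from a weak one.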
